A study of Mus musculus with 12 samples.

Results

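The Gimap genes encode GTPases of the immunity associated protein family, and 8 of them (Gimap1, Gimap3, Gimap4, Gimap5, Gimap6, Gimap7, Gimap8 and Gimap9) are described here among the 23284 genes for which RNA levels were deposited in each tissue. They were taken by gene symbol. The family was selected on its FPKM differences between cKO and YFP+ cells in these same libraries, so those differences are given as a description, without a test. The RNA came from natural killer T (NKT) cells, which recognise lipids on the molecule CD1d and were sorted from thymus and liver of C57BL/6 mice as cells that were 7AAD-, CD45R-, CD4- and CD8- and that stained for CD1d dimer and TCRb. There were 12 libraries in 4 groups of 3. The cKO groups hold NKT cells of double-negative (DN) origin, from mice that carry the E8III-Cre transgene, which is active from the CD4+CD8+ double-positive (DP) stage, together with a floxed Rag2 gene. The YFP+ groups hold NKT cells of DP origin, from mice that carry the same E8III-Cre transgene together with a Rosa26 reporter that a loxP-flanked stop keeps silent until Cre acts. Both kinds of mouse carry Cre, only the cKO mice carry the floxed Rag2, and neither ages nor separate animals are given for the replicates. The p-values below therefore measure only the spread between these libraries, and the origin of the cells cannot be told apart from the mouse that made them.

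Gimap proteins are small or mid-sized GTP-binding proteins of lymphocytes, encoded side by side in 1 cluster, and many of them sit on the membranes of organelles. They are best known for their part in the survival and quiescence of mature T cells: rats and mice without Gimap5 lose peripheral T cells, and mice without Gimap1 lose mature T and B cells. Gimap3 is the closest relative of Gimap5 in the mouse, Gimap6 binds Gabarapl2, an Atg8-like protein of the autophagy machinery, and Gimap4 has been linked to the timing of T cell apoptosis.

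In the RefSeq annotation of GRCm38.p6 the 8 genes follow each other on chromosome 6 in the order Gimap8, Gimap9, Gimap4, Gimap6, Gimap7, Gimap1, Gimap5 and Gimap3, with Zfp775 on one side and Tmem176b and Tmem176a on the other. Reads of Gimap3 and Gimap5 may be hard to separate. In GENCODE transcripts, 15.6% of the 25-base windows of Gimap3 also occur in Gimap5, and 7.52% of its 50-base windows do. For Gimap5 the shares in Gimap3 are 9.54% and 4.53%, and none of the windows of the other 6 genes occurs in another member. The way in which the deposited values divide shared reads is not known, so the levels of Gimap3 and Gimap5 are less certain than those of the others.

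The promoters of 3 members are shown because their results frame the family: Gimap4 and Gimap6 were the members with the largest relative differences in both tissues among those whose groups did not overlap, and Gimap3 was the member with the smallest relative difference in the liver. Each runs 5′ to 3′ on the strand of its gene, from 250 bases before to 50 bases after the start in RefSeq on GRCm38.p6. The windows are chr6:48684328-48684627 on the plus strand for Gimap4, chr6:48708195-48708494 on the minus strand for Gimap6 and chr6:48770802-48771101 on the minus strand for Gimap3. Capitals mark matches on either strand to TGTGGT (RUNX), CGGAAG (ETS) or TGTTTAC (FOXO).
Gimap4: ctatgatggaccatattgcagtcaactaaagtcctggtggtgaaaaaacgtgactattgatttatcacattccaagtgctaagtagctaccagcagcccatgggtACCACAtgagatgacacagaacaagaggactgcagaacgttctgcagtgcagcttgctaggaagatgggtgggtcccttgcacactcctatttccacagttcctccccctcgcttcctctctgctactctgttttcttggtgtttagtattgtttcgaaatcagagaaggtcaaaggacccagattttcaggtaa
Gimap6: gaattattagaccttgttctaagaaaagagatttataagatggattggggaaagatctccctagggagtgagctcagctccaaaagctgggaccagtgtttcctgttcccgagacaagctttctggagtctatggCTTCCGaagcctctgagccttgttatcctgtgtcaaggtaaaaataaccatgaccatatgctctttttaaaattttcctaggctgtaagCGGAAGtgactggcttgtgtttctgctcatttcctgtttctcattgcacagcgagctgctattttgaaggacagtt
Gimap3: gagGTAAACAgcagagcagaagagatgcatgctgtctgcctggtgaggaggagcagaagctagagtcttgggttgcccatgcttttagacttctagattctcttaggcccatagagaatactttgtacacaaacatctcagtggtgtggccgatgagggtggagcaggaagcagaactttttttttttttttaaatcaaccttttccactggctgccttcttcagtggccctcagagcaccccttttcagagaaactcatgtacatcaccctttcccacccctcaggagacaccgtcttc
Gimap4 holds 1 RUNX match, Gimap6 holds 2 ETS matches and Gimap3 holds 1 FOXO match. The 8 genes have 9 promoter windows in RefSeq, since Gimap8 has a pair of overlapping ones. Across the family, 3 of 8 genes (Gimap1, Gimap4 and Gimap7) held a RUNX match, against 16.8% of all 32851 promoter windows of this length. An ETS match was present in 3 genes (Gimap1, Gimap6 and Gimap8), against 16.9% of all windows, and the FOXO match in 1 gene, against 3.65%. The E box CAGGTG was found in 1 gene (Gimap9), against 20.2%, and the KLF motif CACCC in 5 genes, against 57.5% of all windows. None of the 5 motifs was shared by all 8 members. A match of these letters is a description of the window and says nothing of binding.

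All 10 markers of NKT and T cell identity averaged at least 1 FPKM in each of the 4 groups, with Cd3e at 292 to 295 FPKM in thymus cKO, 348 to 367 in thymus YFP+, 1018 to 1048 in liver cKO and 1022 to 1069 in liver YFP+ libraries. FPKM are fragments per kilobase of transcript, scaled by the mapped total of a library, so levels of different genes can be compared within a library. The values of a library summed to 187828 to 194655 FPKM in thymus cKO, 198790 to 212688 in thymus YFP+, 450429 to 465304 in liver cKO and 509267 to 558042 in liver YFP+. The tables hold no read totals, which leaves depth unknown, and the tables of thymus and liver were normalized separately, so levels are compared only within a tissue. Genes at 0 FPKM numbered 6702 to 6841 in liver cKO and 8800 to 8869 in liver YFP+ libraries. In the thymus they numbered 4033 (replicate 2) to 4370 in cKO and 4571 to 5740 (replicate 3) in YFP+. The part of whatever sets these numbers in the differences below was not tested. Liver YFP+ replicate 1 stands apart for some transcripts: 34 of 3996 genes with a group mean of at least 10 FPKM (0.851%), Gimap1 among them, lay under a 3rd of their level in both other YFP+ libraries, against 0 to 2 genes in the other liver libraries. The titles and column headers of the 6 liver libraries name one kind of mouse and the description field the other. The titles are followed here, and if the descriptions are right, each liver difference below has the opposite sign. In bulk RNA, fewer cells that express a gene and less RNA per cell cannot be told apart, and this touches every level below.

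In the thymus, Gimap RNA was lower in cKO than in YFP+ NKT cells. Summed over the 8 genes, it came to 382 ± 70.2 FPKM in cKO and 548 ± 37.5 FPKM in YFP+ libraries (SD, n = 3 each), which is 0.198% and 0.268% of all FPKM. Every cKO library lay below every YFP+ library for 7 of 8 genes, a pattern that 37.6% of the 9097 tested genes (mean of at least 1 FPKM) also showed. With limma on log2(FPKM + 1) and a Benjamini-Hochberg adjusted threshold of 0.05, 6 of 8 passed as lower in cKO, against a background of 13.1% of tested genes called lower and 2.64% called higher. Since these differences were known when the genes were chosen, nothing is read from the counts.

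Gimap3, an outer mitochondrial membrane GTPase in mouse, was the most abundant member, with 244, 175 and 223 FPKM in cKO and 262, 272 and 294 FPKM in YFP+ replicates 1, 2 and 3. The groups do not overlap, yet cKO replicate 1 lies close to the lowest YFP+ library. Its mean was 214 ± 35.5 FPKM in cKO and 276 ± 16.4 FPKM in YFP+, and it ranked 107 of 23284 genes by mean level in cKO and 88 in YFP+. The difference on the log2(FPKM + 1) scale was -0.38 (SE 0.12), which did not pass the threshold and became -0.24 without cKO replicate 2. Differences on this scale are cKO minus YFP+ and understate the change of low genes. The median tested gene was itself at -0.16 in the thymus, so Gimap3 lay 0.21 below it.

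Gimap6, the partner of Gabarapl2, followed with 109, 69.7 and 81.8 FPKM in cKO and 138, 133 and 159 FPKM in YFP+. All 3 cKO libraries were below all 3 YFP+ libraries, and replicate 1 was again the nearest to them. The means were 86.9 ± 20.3 FPKM in cKO and 143 ± 13.8 FPKM in YFP+, a difference of -0.74 (SE 0.15).

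Gimap4, the member linked to T cell apoptosis, stood at 20.2, 10.3 and 12.5 FPKM in cKO and at 27.5, 26.5 and 30 FPKM in YFP+. Its thymic mean was 48.9% lower in cKO, with a difference of -0.97 (SE 0.20), the lowest of the 8 in this tissue. The cKO libraries spread widely, with a coefficient of variation of 36.5%, against 6.4% in YFP+.

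Gimap5 and Gimap1, the members whose loss in animals was named above, showed the same order of groups. Gimap5, a GTPase of lysosomal membranes needed for T cell survival, stood at 21.3, 16.3 and 18.6 FPKM in cKO and at 25.9, 26.9 and 30.3 FPKM in YFP+, a difference of -0.54 (SE 0.11). Gimap1, needed for mature lymphocytes, stood at 25.5, 21.2 and 21.9 FPKM in cKO and at 34.5, 31.5 and 37.7 FPKM in YFP+, a difference of -0.57 (SE 0.10). Neither gene's groups overlap, and Gimap1 had the least spread of all members among thymic cKO libraries, with a coefficient of variation of 10.2%.

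Gimap9 and Gimap8 were likewise lower in all 3 cKO libraries. Gimap9 stood at 19.2, 12.7 and 14.2 FPKM in cKO and at 22.4, 25.04 and 25.3 FPKM in YFP+, a difference of -0.64 (SE 0.14). Gimap8, which has 3 GTP-binding domains in place of 1, stood at 8.70, 5.50 and 7.44 FPKM in cKO and at 10.1, 10.5 and 11.6 FPKM in YFP+, a difference of -0.53 (SE 0.14). Gimap7 was the exception among the 8. It was the least abundant, at 3.77, 0.977 and 2.097 FPKM in cKO and at 2.84, 2.90 and 2.98 FPKM in YFP+, so its cKO range encloses the YFP+ values, and its difference was -0.34 (SE 0.27), which became -0.66 without cKO replicate 1 and -0.02 without cKO replicate 2.

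**Figure D1:**
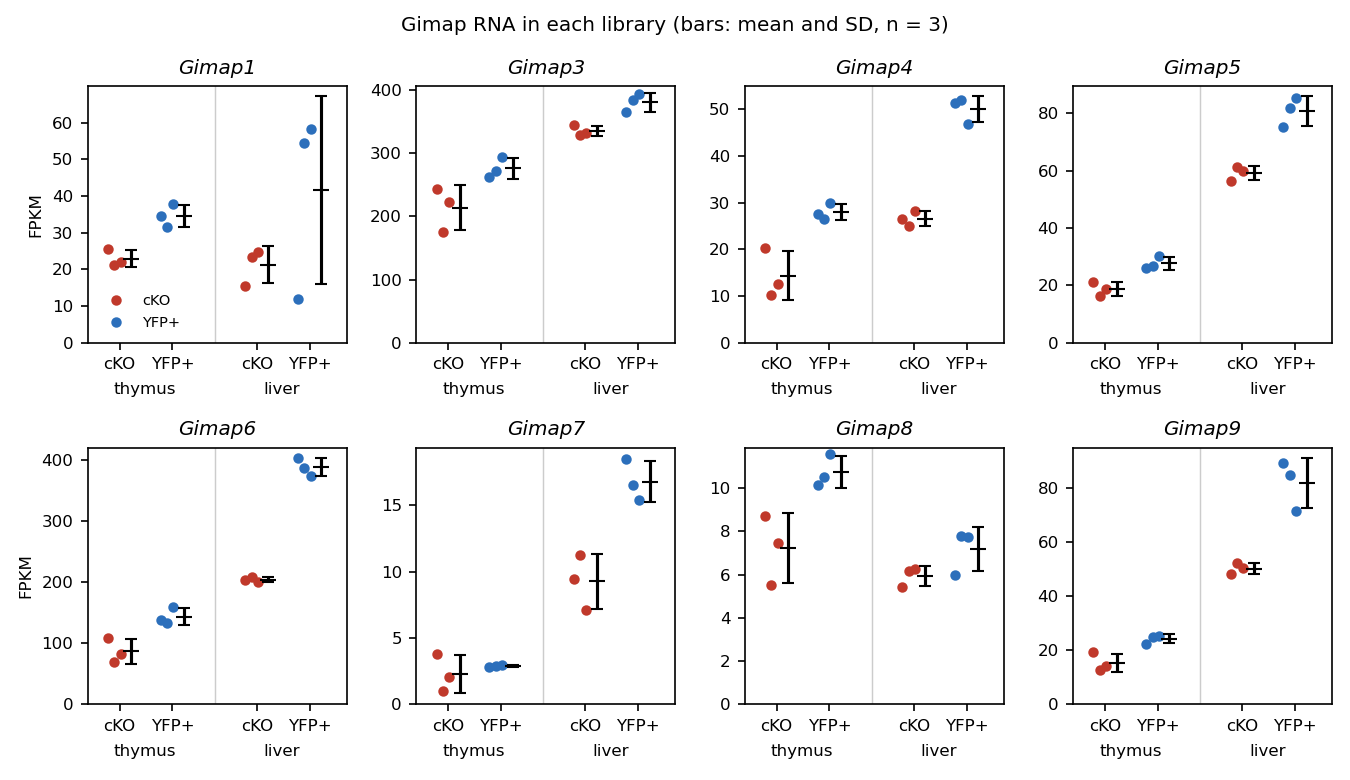
RNA level (FPKM, linear axis from 0) of each Gimap gene in each library, cKO in red and YFP+ in blue, with thymus left and liver right of the grey line; points are libraries in replicate order and black bars give mean and SD (n = 3). Thymus cKO points lie below the YFP+ points for all genes but Gimap7, and liver cKO points for all but Gimap1 and Gimap8; levels are comparable within a tissue only.

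The thymic values share a library order. In all 8 genes cKO replicate 1 was the highest and cKO replicate 2 the lowest of the cKO libraries, and YFP+ replicate 3 was the highest of the YFP+ libraries. Of all tested thymic genes, 49.4% had cKO replicate 1 highest of cKO, 47.7% had cKO replicate 2 lowest and 56.2% had YFP+ replicate 3 highest. The same order of the cKO libraries held in 20 of 20 tested genes of the list of other immune GTPases given below. The number of Gimap genes past the threshold moved with single libraries: leaving out cKO replicate 1 gave 8 and leaving out cKO replicate 2 gave 4, the loss of cKO replicate 3 or of YFP+ replicate 3 gave 1, and that of YFP+ replicate 1 or of YFP+ replicate 2 gave 2. The share of all tested genes called lower moved too, to 22.6% when cKO replicate 1 was left out, 5.38% for cKO replicate 2 and 4.79% for cKO replicate 3; leaving out YFP+ replicate 1 gave 5.15%, YFP+ replicate 2 gave 5.26% and YFP+ replicate 3 gave 3.73%. Erythroid markers summed to 108 FPKM in cKO replicate 1, nearly all globin RNA, and to 0.179 FPKM in cKO replicate 2, the lowest of cKO. In YFP+ they summed to 0.152 to 0.860 FPKM. The globin gene Hbb-b1 stood at 40.8, 0.034 and 5.51 FPKM in cKO replicates 1, 2 and 3, and at 0.030 to 0.322 in YFP+. The part of red cell RNA or of any other property of these cKO libraries in the shared order was not tested.

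In the liver, Gimap RNA was again lower in cKO. The sum of the 8 genes was 712 ± 5.17 FPKM in cKO and 1046 ± 24.7 FPKM in YFP+ libraries (SD, n = 3 each), which is 0.156% and 0.195% of all FPKM. Every cKO library lay below every YFP+ library for 6 of 8 genes, as it did for 29.6% of the 9591 tested genes. With limma, 5 of 8 passed as lower in cKO, against 19.7% of tested genes called lower and 7.49% called higher. Here too the counts describe genes that were chosen with these values in view.

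Gimap6 and Gimap4 showed the largest differences among genes whose groups did not overlap. Gimap6 had 203, 209 and 201 FPKM in cKO and 403, 387 and 373 FPKM in YFP+ livers. The libraries of each group lie close together and far from the other group, and the mean was 47.4% lower in cKO, a difference of -0.92 (SE 0.07). Gimap4 stood at 26.6, 24.9 and 28.2 FPKM in cKO and at 51.2, 51.9 and 46.9 FPKM in YFP+, a difference of -0.89 (SE 0.09). The median tested gene was at -0.11 in the liver, so Gimap6 lay 0.81 and Gimap4 0.78 below it.

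Gimap9 and Gimap7, which lie on either side of that pair on the chromosome, followed. Gimap9 stood at 48.0, 52.2 and 50.2 FPKM in cKO and at 89.1, 84.7 and 71.5 FPKM in YFP+, a difference of -0.69 (SE 0.10). Gimap7, whose human counterpart can drive GTP hydrolysis by pairing with other Gimap proteins, stood at 9.41, 11.2 and 7.14 FPKM in cKO and at 18.5, 16.5 and 15.4 FPKM in YFP+, a difference of -0.81 (SE 0.16). Its groups were apart in the liver, whereas they overlapped in the thymus.

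The Gimap5 and Gimap3 pair differed less. Gimap5 stood at 56.3, 61.2 and 59.9 FPKM in cKO and at 75.04, 81.9 and 85.2 FPKM in YFP+, a difference of -0.44 (SE 0.08). Gimap3 stood at 344, 330 and 331 FPKM in cKO and at 365, 384 and 394 FPKM in YFP+. Its groups do not overlap, but the mean was only 11.96% lower in cKO, and the difference of -0.18 (SE 0.07) lay 0.07 below the median gene, did not pass the threshold and turned to 0.086 under quantile normalization.

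Gimap8 and Gimap1 overlapped between the groups. Gimap8 stood at 5.42, 6.15 and 6.25 FPKM in cKO and at 5.99, 7.80 and 7.75 FPKM in YFP+, a difference of -0.23 (SE 0.13). Gimap1 stood at 15.5, 23.5 and 24.8 FPKM in cKO and at 12.1, 54.6 and 58.2 FPKM in YFP+. A single library sets its result: YFP+ replicate 1 was below all 3 cKO libraries, while YFP+ replicates 2 and 3 were above them. The difference was -0.68 (SE 0.52) with all libraries, -1.39 without YFP+ replicate 1, -0.35 without YFP+ replicate 2 and -0.30 without YFP+ replicate 3. Without that library Gimap1 and Gimap3 joined the genes past the threshold, making 7 of 8, where 21.03% of 9619 tested genes were called lower. Gimap3, Gimap5 and Gimap8 also had their lowest YFP+ value in YFP+ replicate 1, and the overlap of the Gimap8 groups rests on that library alone. Gimap4, Gimap6, Gimap7 and Gimap9 were not low in that library, where each stood above at least 1 other YFP+ library.

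**Figure D2:**
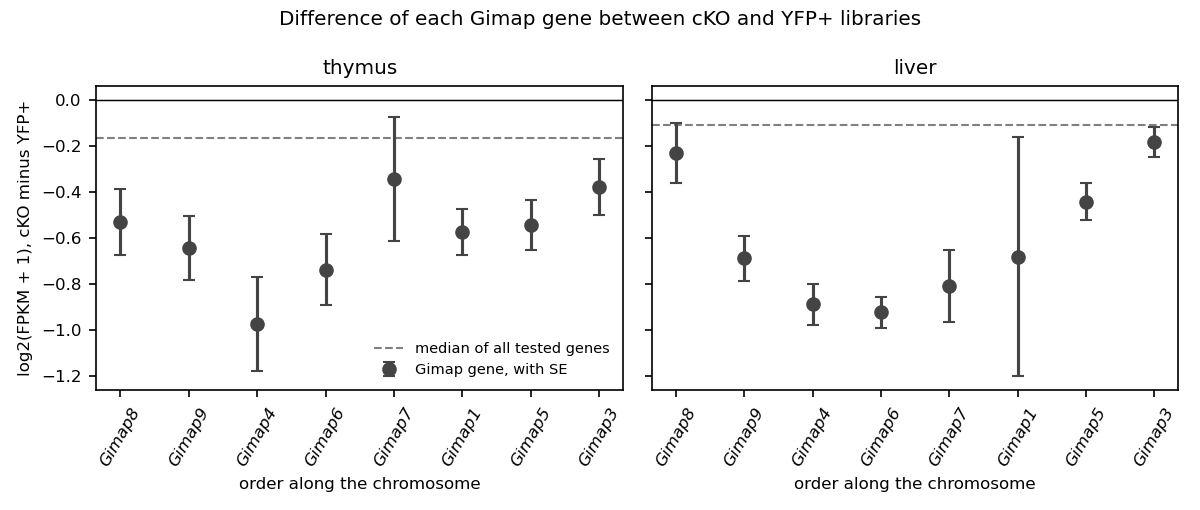
Difference of each Gimap gene on the log2(FPKM + 1) scale, cKO minus YFP+, in thymus (left) and liver (right), with genes in their order along chromosome 6; points are estimates, bars are SE, and the dashed line is the median of all tested genes (-0.16 in thymus, -0.11 in liver). All 16 estimates are below 0 on the deposited scale, with Gimap4 lowest in the thymus and Gimap6 in the liver; liver Gimap3 turned to 0.086 under quantile normalization.

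RNA of markers of other cell types differed between the liver groups. The sort kept CD4- CD8- CD45R- cells, a gate that should remove DP thymocytes and B cells. Markers of DP thymocytes summed to 15.2 to 16.9 FPKM in liver cKO and 63.3 to 71.5 in liver YFP+, and erythroid markers to 9.83 to 14.97 FPKM in cKO and 641 to 742 in YFP+. B cell markers summed to 2.801 to 4.65 FPKM in cKO and 12.4 to 13.2 in YFP+, and myeloid markers to 17.3 to 20.4 FPKM in cKO and 51.1 to 68.8 in YFP+, of which Lyz2 alone made 9.21 to 13.7 in cKO and 40.8 to 56.6 in YFP+. The hepatocyte list summed to 12.6 to 16.7 FPKM in cKO and 37.9 to 43.1 in YFP+, but nearly all of it was Trf, at 10.6 to 14.4 FPKM in cKO and 36.2 to 40.8 in YFP+. Alb, which defines hepatocytes, stood at 0.053 to 0.059 FPKM in cKO and 0 in YFP+, and Ttr and Ahsg were at 0 in all 6 liver libraries. Endothelial markers summed to 1.35 to 2.11 FPKM in cKO and 3.68 to 4.22 in YFP+. Most of this was Pecam1, at 0.995 to 1.67 FPKM in cKO and 2.64 to 3.78 in YFP+. Of the 11 genes, 5 were at 0 in all cKO libraries and 5 in all YFP+ libraries, but not the same 5. Kdr and Ptprb were above 0 only in cKO, and Lyve1 and Clec4g only in YFP+ replicate 1. Markers of NK cells and of ILC1, their tissue-resident relatives, summed to 221 to 229 FPKM in cKO and 160 to 187 in YFP+, mostly Klre1 at 189 to 196 in cKO and 125 to 155 in YFP+, while Klrb1b of the same list stood at 15.6 to 16.5 in cKO and 20.4 to 23.0 in YFP+. In the thymus the NK sums were 134 to 153 FPKM in cKO and 75.002 to 78.7 in YFP+, and DP thymocyte markers summed to 1.41 to 2.61 FPKM in cKO and 8.34 to 10.1 in YFP+. Thymic B cell markers summed to 1.62 to 2.05 FPKM in cKO and 1.83 to 2.17 in YFP+, myeloid markers to 2.20 to 2.85 in cKO and 3.03 to 3.47 in YFP+, endothelial markers to 1.23 to 1.38 in cKO and 2.47 to 2.89 in YFP+, and the hepatocyte list to 4.37 to 6.27 in cKO and 26.2 to 30.4 in YFP+. That last sum was again Trf, at 4.16 to 5.92 FPKM in cKO and 26.02 to 30.3 in YFP+, with Alb at 0.056 to 0.294 in cKO and 0.029 to 0.184 in YFP+. The thymic NK sum was again mostly Klre1, at 107 to 123 FPKM in cKO and 47.4 to 51.1 in YFP+, with Klrb1b at 2.39 to 2.76 in cKO and 3.01 to 4.15 in YFP+. The NKT and T cell identity markers summed to 1262 to 1312 FPKM in cKO and 1492 to 1676 in YFP+ thymus, and to 3478 to 3539 FPKM in cKO and 3630 to 4095 in YFP+ liver. In the thymus 3 of these 10 identity genes passed limma as lower and 0 as higher, where 13.1% and 2.64% of tested genes did. In the liver 2 passed as lower and 2 as higher, where 19.7% and 7.49% did. Zbtb16 of that list stood at 3.15 to 4.27 FPKM in cKO and 11.0 to 13.5 in YFP+ thymus, but overlapped in the liver. Liver Il2rb went against the sum, at 485 to 520 FPKM in cKO and 337 to 403 in YFP+. The part of other cells, or of the smaller identity sums of cKO and their single genes, in the Gimap differences was not tested.

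The differences of the tissues can be set beside each other, since an offset between the tables cancels within each tissue except for low genes. The liver difference minus the thymus difference was 0.08 (SE 0.25) for Gimap4, -0.05 (SE 0.18) for Gimap9, 0.10 (SE 0.14) for Gimap5 and -0.19 (SE 0.18) for Gimap6. For Gimap3 it was 0.20 (SE 0.14), for Gimap8 0.30 (SE 0.20) and for Gimap7 -0.47 (SE 0.35). Gimap1 gave -0.11 (SE 0.60), with -0.82 without liver YFP+ replicate 1, 0.23 without YFP+ replicate 2, 0.27 without YFP+ replicate 3 and 0.096 without liver cKO replicate 1. These values are a description, and their errors leave room for differences between the tissues in either direction. They also rest on the liver titles: with the liver groups exchanged, as the descriptions have them, they would be 1.86 for Gimap4, 1.66 for Gimap6, 0.56 for Gimap3 and between those for the other members. Among the 8372 genes tested in both tissues, 13.7% passed limma's test of that difference.

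The proportions of the members were described by setting each gene against Gimap3 of the same library, a ratio that no factor applied to a whole library can move, though quantile normalization can. These ratios come from the values that chose the family and carry no test. Per 100 FPKM of Gimap3, Gimap6 stood at 60.9 ± 2.19 in liver cKO and 102 ± 7.94 in liver YFP+, with ranges of 58.9 to 63.3 in cKO and 94.8 to 111 in YFP+. In the thymus the same ratio was 40.4 ± 4.15 in cKO and 51.9 ± 2.71 in YFP+ (SD, n = 3 each). Gimap4 stood at 6.59 ± 1.49 in cKO and 10.1 ± 0.393 in YFP+ in the thymus, and at 7.93 ± 0.516 in cKO and 13.2 ± 1.12 in YFP+ in the liver. In each tissue, 5 of the 7 other members had a lower ratio in every cKO library than in any YFP+ library, as did 4.08% of the other tested genes in the thymus and 15.7% in the liver. Gimap4, Gimap5, Gimap6 and Gimap9 did so in both tissues, Gimap8 in the thymus and Gimap7 in the liver, while the ratio of Gimap1 overlapped in both. A ratio of this kind shows unequal change and not which gene changed, and Gimap3 is also the member whose reads can be shared with Gimap5. Among members with groups apart, Gimap3 had the smallest difference in each tissue (-0.38 in thymus, -0.18 in liver). Lower ratios of other members therefore follow in part from its choice. Gimap3 also lay 0.21 below the median gene in the thymus and 0.07 in the liver. This makes the shares of all genes smaller, so they are no neutral background for the 5 of 7.

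**Figure D3:**
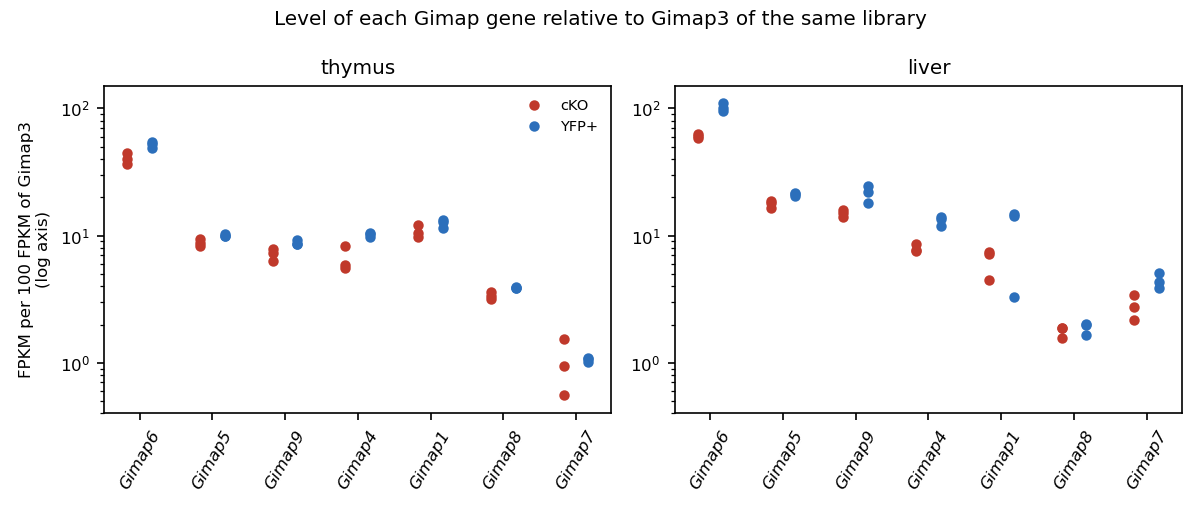
Level of each other Gimap gene per 100 FPKM of Gimap3 in the same library, on a log axis, for thymus (left) and liver (right), with cKO in red, YFP+ in blue and 1 point a library. Liver Gimap6 spans 58.9 to 63.3 in cKO and 94.8 to 111 in YFP+, and the single low YFP+ point of liver Gimap1 is replicate 1.

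The make-up of the family followed from these ratios. Gimap3 held 53.9 to 58.5% of Gimap FPKM in thymus cKO and 49.7 to 51.5% in thymus YFP+ libraries, and Gimap6 held 21.4 to 24.2% in cKO and 25.2 to 26.9% in YFP+. In the liver Gimap3 held 45.9 to 48.6% in cKO and 35.8 to 37.4% in YFP+, and Gimap6 held 28.3 to 29.1% in cKO and 35.5 to 39.5% in YFP+. Gimap3 was thus first and Gimap6 second in 3 groups, while in liver YFP+ the ranges of the pair overlapped, at 365 to 394 FPKM for Gimap3 and 373 to 403 FPKM for Gimap6. Below these, the thymic order was Gimap1, Gimap5, Gimap9, Gimap4, Gimap8 and Gimap7 in cKO, and Gimap1, Gimap4, Gimap5, Gimap9, Gimap8 and Gimap7 in YFP+. Neighbours from Gimap1 down to Gimap4 overlapped in thymus cKO, and Gimap4 and Gimap5 overlapped in thymus YFP+. In liver cKO no neighbours overlapped in the order Gimap5, Gimap9, Gimap4, Gimap1, Gimap7 and Gimap8. In liver YFP+ the order was Gimap9, Gimap5, Gimap4, Gimap1, Gimap7 and Gimap8, with overlaps of Gimap9 with Gimap5 and of Gimap1 with both Gimap4 and Gimap7.

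Likeness was measured as the root mean square difference of log2(FPKM + 1) profiles over the 12 libraries, each centred within its tissue. Among the members, Gimap3 and Gimap8 were closest at 0.0981, followed by Gimap5 and Gimap8 at 0.101, and Gimap1 and Gimap7 were farthest at 0.634. Members lay between 0.0899 (Gimap5) and 0.464 (Gimap1) from the family mean, and 8364 other genes had a median distance of 0.311 from it. Placed among those other genes, Gimap5 would rank 1, Gimap9 22, Gimap8 45 and Gimap6 77. Gimap3 would rank 289, Gimap4 626, Gimap7 1425 and Gimap1 7562, although each member is part of that mean. The 5 other genes nearest to the family mean were Mios at 0.0925, Snapin at 0.0972, Gm8221 at 0.0997, Apol7a at 0.101 and Kpna2 at 0.103. Snapin, a protein of the BLOC-1 and BORC complexes of lysosome traffic, averaged 18.0 ± 3.98 FPKM in cKO and 24.6 ± 2.14 in YFP+ thymus, and 21.6 ± 1.43 in cKO and 32.2 ± 2.34 in YFP+ liver. Mios, a subunit of the GATOR2 complex upstream of mTORC1, averaged 3.93 ± 0.874 FPKM in cKO and 5.49 ± 0.597 in YFP+ thymus, and 1.62 ± 0.0941 in cKO and 2.68 ± 0.421 in YFP+ liver (SD, n = 3 each).

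Genes set beside the Gimap genes, as 5 lists by related function, protein kind or listed place near the cluster, did not all lie lower in cKO. The counts of each list stand against all tested genes. Of these, 13.1% passed as lower and 2.64% as higher in the thymus, and 19.7% and 7.49% in the liver. The list of T cell quiescence and egress had a median difference of 0.24 in the thymus, where all tested genes had -0.16. Of its 15 genes 12 were tested there, and 5 passed as higher and 3 as lower in cKO. Klf2, a quiescence factor of resting T cells, averaged 133 ± 5.90 FPKM in cKO and 63.1 ± 8.15 in YFP+ thymus (difference 1.07, limma adjusted p = 0.000555). S1pr1, the egress receptor that Klf2 drives, averaged 10.8 ± 2.35 FPKM in cKO and 4.34 ± 0.145 in YFP+ (1.13, adjusted p = 0.00218). Lef1, a factor of young and resting T cells, fell to 5.95 ± 0.935 FPKM in cKO, against 23.6 ± 2.04 in YFP+ (-1.83, adjusted p = 0.000106). Il7r, the receptor of the survival cytokine IL-7, averaged 298 ± 37.6 FPKM in cKO and 390 ± 39.7 in YFP+ thymus (-0.39, adjusted p = 0.0471), a call kept in 3 of 11 alternative analyses. Cd69, which holds T cells in tissue, averaged 59.4 ± 11.6 FPKM in cKO and 40.6 ± 1.46 in YFP+ thymus (0.52, adjusted p = 0.0386), kept in 4 of 11. Ccr7 was under the level tested in the thymus, at 0.211 ± 0.0811 FPKM in cKO and 1.36 ± 0.116 in YFP+.

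In the liver the same list had a median of -0.25, where all tested genes had -0.11, and 14 of its genes were tested, of which 1 passed as higher and 7 as lower. S1pr1 rose to 16.6 ± 1.67 FPKM in cKO, against 12.4 ± 0.345 in YFP+ (0.39, adjusted p = 0.0241), a call lost on leaving out YFP+ replicate 2 or either of cKO replicates 2 and 3. Ccr7, a chemokine receptor of lymph node homing, fell to 1.47 ± 0.678 FPKM in cKO, against 12.8 ± 1.51 in YFP+ (-2.52, adjusted p = 0.000224). Lef1 averaged 9.94 ± 2.79 FPKM in cKO and 40.2 ± 2.698 in YFP+ (-1.94, adjusted p = 0.000224), and Cd69 averaged 59.9 ± 6.17 FPKM in cKO and 124 ± 8.73 in YFP+ (-1.04, adjusted p = 0.000354). Klf2 stood at 10.4 ± 1.003 FPKM in cKO and 10.4 ± 1.26 in YFP+ liver, with a difference of 0.00 (adjusted p = 0.992), and Il7r at 337 ± 11.0 FPKM in cKO and 305 ± 21.5 in YFP+ (adjusted p = 0.195), which passed with median ratios and quantile normalization (lowest adjusted p = 0.0104). The liver differences of this list stand beside the higher DP thymocyte and B cell marker sums of YFP+ given above, cells that the CD4- CD8- CD45R- gate should remove, and their part was not tested.

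Of the Bcl2 family, whose members decide survival at the mitochondrion, 11 of 18 genes were tested in each tissue. In the thymus 3 passed as lower and 0 as higher (median 0.02), against 3 lower and 3 higher with median ratios and 3 lower and 2 higher with quantile normalization or without cKO replicate 1. All 3 of the lower calls as deposited were copies of the survival gene Bcl2a1. Bcl2a1b averaged 52.8 ± 4.19 FPKM in cKO and 120 ± 7.45 in YFP+ thymus (-1.17, adjusted p = 0.000154). Bcl2a1a, Bcl2a1b and Bcl2a1d are nearly identical, so the split between them is uncertain. Bcl2 itself averaged 21.9 ± 5.54 FPKM in cKO and 20.6 ± 0.855 in YFP+ thymus (adjusted p = 0.828), and its relative Bcl2l1 averaged 14.5 ± 1.49 FPKM in cKO and 12.9 ± 1.499 in YFP+ (adjusted p = 0.291). In the liver Bcl2 rose to 34.6 ± 1.64 FPKM in cKO, against 18.4 ± 0.794 in YFP+ (0.87, adjusted p = 0.000394). Bak1, which opposes survival, averaged 4.37 ± 0.734 FPKM in cKO and 2.77 ± 0.501 in YFP+ liver (0.51, adjusted p = 0.0444), a call kept in 5 of 11 alternatives. The liver count was 2 higher and 3 lower (median -0.33), the 3 being the Bcl2a1 copies, of which Bcl2a1b lost its call with median ratios and quantile normalization and Bcl2a1a with quantile normalization.

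All 19 autophagy genes were tested in the thymus and 17 in the liver. None passed as higher in either, where 2.64% and 7.49% of all tested genes did. In the thymus 2 passed as lower, Gabarapl2 and Gabarap, where 13.1% of all tested genes did. The list's median was -0.11, which turned to 0.07 with median ratios and 0.06 with quantile normalization, and neither scaling left a call. Gabarapl2, the partner of Gimap6, averaged 19.0 ± 2.42 FPKM in cKO and 26.5 ± 1.83 in YFP+ (-0.47, adjusted p = 0.0256), a call kept in 4 of 11 alternatives. Gabarap, its close relative, averaged 24.6 ± 2.37 FPKM in cKO and 31.6 ± 1.46 in YFP+ (-0.35, adjusted p = 0.0358), kept in 3 of 11. In the liver 5 passed as lower, where 19.7% of all tested genes did. The median there was -0.13, which turned to 0.02 with quantile normalization, under which 1 passed. Gabarapl2 averaged 94.9 ± 4.55 FPKM in cKO and 129 ± 9.57 in YFP+ (-0.44, adjusted p = 0.00628), a call lost with libraries rescaled by median ratios and with quantile normalization. Sqstm1, an autophagy receptor, averaged 23.3 ± 0.230 FPKM in cKO and 32.1 ± 1.08 in YFP+ liver (-0.44, adjusted p = 0.00567), a call lost with quantile normalization, and Atg10, an enzyme of Atg12 conjugation, averaged 4.42 ± 0.291 FPKM in cKO and 7.54 ± 0.839 in YFP+ (-0.65, adjusted p = 0.00638). Atg5, which joins Atg12 in that conjugate, averaged 14.5 ± 1.62 FPKM in cKO and 20.3 ± 1.105 in YFP+ liver (-0.47, adjusted p = 0.0143), a call lost with quantile normalization and without cKO replicate 2.

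The other immune GTPases, the interferon-inducible Gbp and Irg proteins and their relatives, gave 0 calls among 20 tested genes in the thymus with limma, where 0 had an unadjusted p under 0.05 and the lowest adjusted p was 0.136. Their median there was -0.39. Without thymus cKO replicate 1 it was -0.84 and 14 of 18 tested passed as lower, and without thymus cKO replicate 2 it was -0.02 and 0 passed. In the liver 8 of 17 passed as lower and 1 as higher (median -0.23), against 3 lower and 2 higher with median ratios and 3 lower and 3 higher with quantile normalization. On leaving out cKO replicate 1 or 3, or YFP+ replicate 2 or 3, 4 passed as lower, and 5 with the replicate block. Igtp averaged 50.5 ± 3.15 FPKM in cKO and 73.1 ± 2.37 in YFP+ liver (-0.53, adjusted p = 0.0028). Tgtp1 averaged 130 ± 1.44 FPKM in cKO and 184 ± 8.99 in YFP+ (-0.50, adjusted p = 0.00201), and its near-identical copy Tgtp2 shares reads with it. Gvin1, a very large GTPase, rose to 10.1 ± 0.267 FPKM in cKO, against 6.76 ± 0.533 in YFP+ (0.52, adjusted p = 0.00865).

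Of the 13 genes listed as neighbours of the Gimap cluster, of which Xrcc2 and Actr3b lie on chromosome 5 in GRCm38.p6, 5 were tested in each tissue, and 1 passed in each. It was Tmem176a, a membrane channel gene that lies beyond Gimap3. It averaged 2.35 ± 0.389 FPKM in cKO and 4.45 ± 0.875 in YFP+ thymus (-0.69, adjusted p = 0.0176), a call kept in 7 of 11 alternatives. In the liver it averaged 7.90 ± 0.0592 FPKM in cKO and 10.9 ± 0.916 in YFP+ (-0.41, adjusted p = 0.0205), kept in 5 of 11. Tmem176b, which lies between the Gimap cluster and Tmem176a, averaged 1.49 ± 0.141 FPKM in cKO and 2.30 ± 0.610 in YFP+ thymus (adjusted p = 0.0848), and 4.68 ± 0.745 FPKM in cKO and 5.66 ± 0.378 in YFP+ liver (adjusted p = 0.216).

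**Figure D4:**
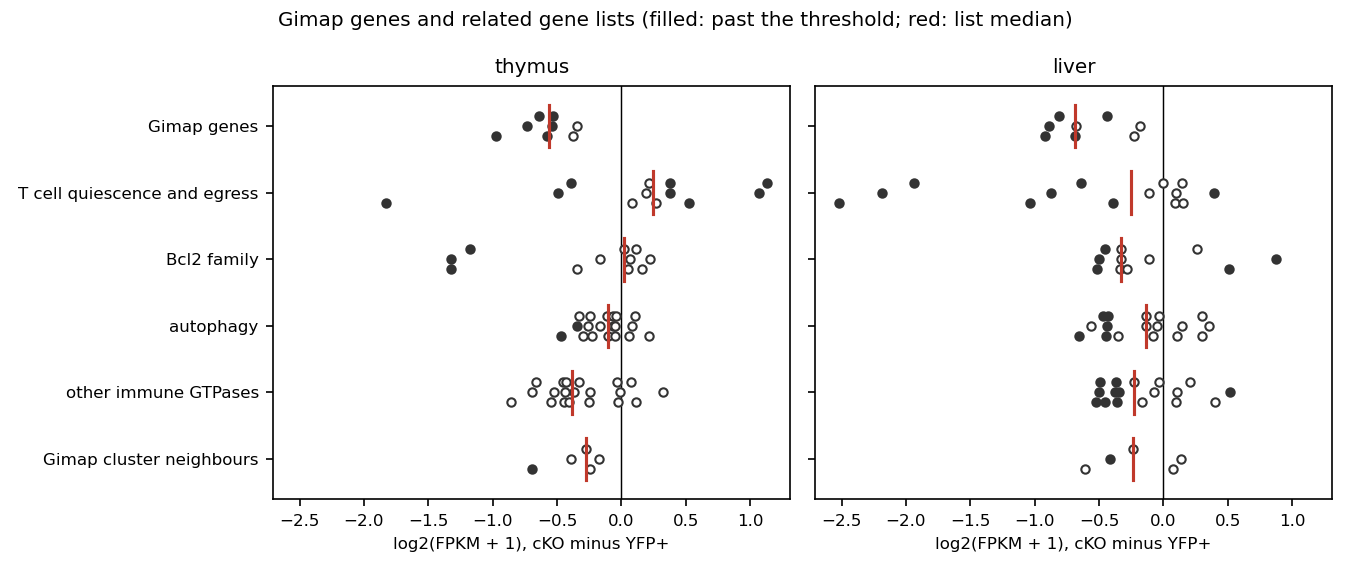
Difference on the log2(FPKM + 1) scale, cKO minus YFP+, of the 8 Gimap genes and of the tested genes of the 5 related lists, in thymus (left) and liver (right); each point is a gene, filled where it passed limma's adjusted threshold of 0.05, and the red bar is the median. The Gimap median is -0.56 in the thymus and -0.68 in the liver, and the list of T cell quiescence and egress has a median of 0.24 in the thymus.

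The shift of all genes bears on every direction given. As deposited, 1189 thymic genes passed as lower and 240 as higher in cKO, against 359 lower and 453 higher with libraries rescaled by median ratios. In the liver 1889 passed as lower and 718 as higher as deposited, against 1036 and 1037 after rescaling. After rescaling, 4 Gimap genes (Gimap1, Gimap4, Gimap5 and Gimap6) passed as lower in the thymus, against 3.94% of tested genes. In the liver 5 (Gimap4, Gimap5, Gimap6, Gimap7 and Gimap9) did, against 10.8%.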

How the data were processed

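RNA of 12 sorted NKT cell libraries was converted to cDNA with a SMARTer Ultra Low Input kit and made into libraries with a TruSeq or a ThruPLEX kit, per the labels' protocols, which do not say which library had which. The authors deposited FPKM, with thymus and liver in separate tables. The thymus table is named paired and the liver table single. If this means paired and single reads, read layout goes with tissue, and its part in the differences between tissues was not tested. The tools, per the submitters' processing notes, were TopHat2 2.8.0 and Cufflinks 2.1.1 on mm9. The unit follows from Cufflinks and the values; the strand setting and the annotation are not given in the sources used here. FPKM divide by transcript length and by the library total, so abundant transcripts of a library lower its other values.

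Groups follow the titles, and 0 columns were left unmapped. limma-trend (limma 3.58.1, R 4.3.3) was fitted on log2(FPKM + 1) over genes that averaged 1 FPKM or more, within each tissue and, for liver minus thymus, over all 12 libraries, with Benjamini-Hochberg adjustment over all tested genes at 0.05. Scripts were tested on simulated data. The members, the 5 gene lists and the 8 marker lists were chosen with earlier results of these data known, and the promoter motifs after the values were seen. Named were all members, up to 4 genes of a list and tissue by size of change among those past the threshold with groups apart, and a few fixed genes. The rule also took the 5 genes nearest the family profile. It further took up to 4 list genes with the smallest p of the liver minus thymus term among those called. Of the genes this rule takes, 1 is withheld for evaluation and is not reported. Alternatives were a pseudocount of 0.1, no filter, median-ratio and quantile scaling, the replicate number as a block, and leaving out each library. RefSeq sequences and gene order come from GRCm38.p6, a different build from mm9.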

Additional observations from a re-analysis of the deposited data

Results flagged for a closer look

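Of 60 genes of the 5 related lists tested in both tissues, 14 passed limma's test of the liver difference minus the thymus difference (cKO minus YFP+, log2(FPKM + 1) scale), where 13.7% of all tested genes passed, and the 11 of them that the rule for named genes takes are given here because their cKO to YFP+ difference is not the same in liver and thymus. In the list of T cell quiescence and egress, Cd69, an activation marker that holds T cells in tissue, differed by -1.56 (adjusted p = 0.000309), with a thymic difference above 0 and a liver difference below 0. Tcf7 differed by -0.76 (adjusted p = 0.00031). Its difference was likewise above 0 in the thymus (0.37, limma adjusted p = 0.0119) and below 0 in the liver (-0.39, limma adjusted p = 0.00488). Klf2 differed by -1.07 (adjusted p = 0.00145), S1pr1 by -0.74 (adjusted p = 0.0209) and Il7r by 0.53 (adjusted p = 0.025). In the Bcl2 family, Bcl2 differed by 0.82 (adjusted p = 0.0211), and the nearly identical copies Bcl2a1b, Bcl2a1a and Bcl2a1d by 0.72, 0.82 and 0.81 (adjusted p = 0.00442, 0.011 and 0.0151). Among autophagy genes, Atg10 differed by -0.75 (adjusted p = 0.0368) and Sqstm1 by -0.40 (adjusted p = 0.0377). These values rest on the liver titles and would take other values if the descriptions hold. The liver YFP+ libraries carried more DP thymocyte and erythroid marker RNA than the cKO libraries, despite a gate that should remove DP thymocytes, and its part in these differences was not tested.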

How the results depend on the processing

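Of 312 values of Gimap differences under an alternative, 293 moved by less than the spread between replicates, 17 moved further (3 on leaving out 1 library) and 2 changed sign by more than that spread. Within tissues 175 of 176 stayed below 0. Quantile normalization turned liver Gimap3 to 0.086 and the liver minus thymus value of Gimap6 to 0.0096, and moved the liver member median to -0.48; the cause was not tested. The number of Gimap genes past the threshold was 2 in the thymus with no filter on low values, where 2.76% of 21737 tested genes were called lower. On leaving out 1 library it was 1 to 8 for thymus and 5 to 7 for liver. The shares of all tested genes called lower were then 3.73% to 22.6% for thymus and 11.4% to 21.03% for liver. The median difference of the Gimap genes without 1 library ran from -0.66 to -0.49 in the thymus and from -0.74 to -0.55 in the liver. All thymic genes past the threshold numbered 801 with no filter, 812 with median ratios, 825 with quantile normalization, and 472 to 2408 without 1 library; liver genes 1539 to 2640 without 1 library.

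Deviations of same-numbered libraries had correlations of -0.000264, 0.00763 and -0.0465 in the thymus and 0.0659, 0.0191 and -0.0634 in the liver. Differently numbered liver libraries ran from -0.113 to 0.11. With 3 libraries a group, these values cannot settle whether the numbers pair libraries. With the replicate block 787 thymic and 2214 liver genes passed, and 6.75% and 16.8% of tested genes were called lower. Among them were 5 Gimap genes in each tissue, 1 thymic autophagy gene and 2 liver neighbours.

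In the lists, the thymic Bcl2 family gave 6 calls with median ratios and 5 with quantile normalization, thymic autophagy 0 with no filter, median ratios or quantile normalization, and thymic neighbours 0 with no filter. Liver autophagy gave 1 call with quantile normalization, other immune GTPases 5 with median ratios, and neighbours 2 with no filter and 0 with either scaling. Without 1 library, calls ran in the thymus and in the liver from 3 to 8 and 6 to 8 for quiescence and egress, 3 to 5 and 4 to 5 for the Bcl2 family, 0 to 4 and 4 to 6 for autophagy, 0 to 14 and 5 to 8 for other GTPases, and 0 to 2 in both for neighbours. List genes that differed between tissues numbered 9 to 21. With a pseudocount of 0.1, 3 of the 5 nearest genes were shared, and 4 with median ratios. Depth is unknown, so no limit of detection can be given.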
